A study of Mus musculus with 4 samples.

Results

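Neural crest cells arise at the border between the neural plate and the surface ectoderm, leave the dorsal neural tube by an epithelial to mesenchymal transition and migrate through the embryo. They give rise to sensory, sympathetic and enteric neurons, Schwann cells and satellite glia, melanocytes, and much of the bone and connective tissue of the face. A set of transcription factors specifies them and drives their delamination, and receptors such as Ednrb and Erbb3 guide and maintain the precursors of pigment, enteric and Schwann cells. Expression of 9 neural crest genes was examined, namely 7 transcription factors (*Tfap2a*, *Tfap2b*, *Foxd3*, *Sox10*, *Snai2*, *Twist1* and *Ets1*) and 2 receptors (*Ednrb* and *Erbb3*), out of 24729 genes named on the arrays. They were chosen by name as a gene class, as all non-control probes whose gene name in the array annotation equals 1 of these symbols, which gave 18 of 43217 named probes.

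RNA of whole mouse embryos was hybridized to 4 one-colour Agilent arrays on 1 slide, with 1 array for each of 4 groups. These were wild-type (WT) and *Dyrk2* knockout (*Dyrk2*-/-) embryos of the C57BL/6 strain (C57BL/6J in the methods) at embryonic day 8.5 (E8.5) and at E10.5, with no treatment. Per the methods, the knockout was made with the CRISPR/Cas9 nickase system, 3 alleles with small deletions were bred, and WT and *Dyrk2*-/- embryos came from intercrosses of heterozygotes. Which deletion the arrayed embryos carried, how many embryos lay behind each RNA, whether they were pooled, and their sex and somite stage are not given in the sources used here. With 1 array per group a difference between genotypes at a stage has no replicate, and it was described by its fold without a p-value.

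Each value is the log2 of a spot's background-subtracted intensity minus the 75th percentile of its array, so that 0 stands for that percentile. Of 56604 probes with a value on every array, those that the scanner software marked as well above background numbered 31370 (WT, E8.5), 30226 (*Dyrk2*-/-, E8.5), 31818 (WT, E10.5) and 31943 (*Dyrk2*-/-, E10.5). No spot was saturated. All 9 genes were well above background on all 4 arrays at their brightest probe, which represents the gene below, and 15 of the 18 probes were. Each of these probes is printed once per array. Probes printed several times had a median SD between spots of 0.09, 0.12, 0.07 and 0.08 (log2) on the 4 arrays in the order above, which gives a spread of 0.15 for an E8.5 log2 ratio and of 0.11 for an E10.5 log2 ratio. This spread covers the spots of an array and not the difference between embryos.

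The targeted gene did not check the labels. The brightest *Dyrk2* probe (chr10:118296479-118296538, mm9, minus strand) had log2 values of 0.06 (WT) and 0.76 (*Dyrk2*-/-) at E8.5 and, in the same order, −0.31 and 0.34 at E10.5, 1.62-fold and 1.57-fold higher on the *Dyrk2*-/- arrays. Its second probe was 1.02-fold and 1.21-fold higher. *Dyrk2* signal was thus not lower on the arrays labelled *Dyrk2*-/-, whose small deletions need not remove the transcript, and every direction between genotypes below rests on the submitters' labels. A *Dyrk2*-/- or WT array stands below for an array labelled so.

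Between E8.5 and E10.5, *Tfap2b*, *Ednrb* and *Twist1* rose and *Foxd3* and *Tfap2a* fell in a test that uses both genotypes as repeats. Of these 5 calls only those of *Tfap2b* and *Ednrb* held when the arrays were scaled by their spike-in controls, and that of *Twist1* was also lost without the intensity trend of the test. Between genotypes no member passed the test over both stages. At E8.5 the largest difference was a higher *Sox10* signal on the *Dyrk2*-/- array, which shrank to a log2 ratio of 0.16 under spike-in scaling, with *Tfap2a* (−0.80) and *Foxd3* (−0.78) then the farthest from 0. At E10.5 every member was slightly lower there, a direction that 4 of them lost under that scaling. In RNA of whole embryos, fewer crest cells and less transcript per cell cannot be told apart, for these and for all values that follow.

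The AP-2 factors *Tfap2a* and *Tfap2b* act at the neural plate border and in early crest, and they take part in the patterning of the branchial arches. *Tfap2a* had log2 values of 2.15 (WT) and 1.89 (*Dyrk2*-/-) at E8.5 and, in the same order, 1.44 and 1.21 at E10.5. Both E8.5 arrays were higher than both E10.5 arrays, and within each stage the WT array was the higher. *Tfap2a* fell by 0.70 on the log2 scale from E8.5 to E10.5 (SE 0.12, limma adjusted p = 0.0026), by 0.71 on the WT and 0.69 on the *Dyrk2*-/- arrays. The genotype ratio of *Tfap2a* was 1.19-fold lower at E8.5 and 1.18-fold lower at E10.5 on the *Dyrk2*-/- arrays, whereas spike-in scaling gave log2 ratios of −0.80 and −0.07 and the mean over its probes 0.15 and 0.16.

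*Tfap2b* ran the other way with stage. It had log2 values of −0.33 (WT) and −0.13 (*Dyrk2*-/-) at E8.5 and, in the same order, 1.58 and 1.31 at E10.5. Both E10.5 arrays were far above both E8.5 arrays. *Tfap2b* rose by 1.68 (SE 0.15, adjusted p = 5.5e-05), which is 3.76-fold on the WT and 2.72-fold on the *Dyrk2*-/- arrays. At E8.5 the *Dyrk2*-/- array was 1.15-fold higher, and at E10.5 it was 1.21-fold lower. The pair of AP-2 paralogues therefore moved in opposite directions between the stages in both genotypes.

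The probes of the AP-2 genes did not all give the same genotype ratio, and the sequences of those of *Tfap2a* are shown to identify them. *Tfap2a* has 4 probes on the minus strand of chromosome 13 (mm9), and the brightest and the next brightest lie near each other, at chr13:40811044-40811103 and chr13:40811568-40811627. The next brightest probe had *Dyrk2*-/- over WT log2 ratios of −0.24 at E8.5 and −0.20 at E10.5, close to those of the brightest. The probe at chr13:40829040-40829099 had ratios of 0.06 and 0.25, and the dimmest probe, at chr13:40816684-40816743, had 1.02 at E8.5. At E10.5 the dimmest probe was well above background on the *Dyrk2*-/- array only, where it was at least 1.68-fold higher. Its signal lay close to the limit of detection, with log2 values of −4.46, −3.43, −4.78 and −3.97 on the WT E8.5, *Dyrk2*-/- E8.5, WT E10.5 and *Dyrk2*-/- E10.5 arrays. The first 30 of the 60 bases of each probe, 5′ to 3′ and with no base marked, are as follows.
brightest probe of Tfap2a: ctatgcctgtcaatgtatcatagtcctttg
next brightest probe of Tfap2a: ccccgtggtagcatgttaaacgattataat
probe of Tfap2a with ratios of 0.06 and 0.25: acgccgatccatgaaaatgctttggaaact
dimmest probe of Tfap2a: aatggagggagatctttaagagaaaaactg
The lower *Tfap2a* signal on the *Dyrk2*-/- arrays thus rests on the brighter pair of probes. *Tfap2b* has a second probe at chr1:19224486-19224545 (plus strand), where the E8.5 log2 ratio was larger, 0.64, and the E10.5 ratio was −0.17. That probe also rose from E8.5 to E10.5, by 0.91 (adjusted p = 0.01).

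*Foxd3*, a forkhead factor of premigratory crest that keeps the progenitors multipotent, was lower at the later stage. Its log2 values were −0.54 (WT) and −0.78 (*Dyrk2*-/-) at E8.5 and, in the same order, −1.55 and −1.96 at E10.5. Both E10.5 arrays were below both E8.5 arrays, and the *Dyrk2*-/- array was the lower at each stage. *Foxd3* fell 2.14-fold from E8.5 to E10.5 (SE of the log2 difference 0.16, adjusted p = 0.00086), with 2.01-fold on the WT and 2.27-fold on the *Dyrk2*-/- arrays. On the *Dyrk2*-/- arrays it was 1.18-fold lower at E8.5 and 1.33-fold lower at E10.5, and with normexp background correction the E10.5 log2 ratio changed from −0.41 to −0.22.

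*Sox10* encodes an SRY-related factor that is turned on as crest cells form and is kept in the Schwann, melanocyte and enteric lineages. Its log2 values were 1.22 (WT) and 1.94 (*Dyrk2*-/-) at E8.5 and, in the same order, 1.49 and 1.18 at E10.5. The *Dyrk2*-/- E8.5 array was the highest of the 4 and the *Dyrk2*-/- E10.5 array the lowest, with the WT arrays in between. *Sox10* was 1.64-fold higher on the *Dyrk2*-/- array at E8.5, where 455 of 15789 genes had a higher ratio. At E10.5 *Sox10* was 1.24-fold lower on the *Dyrk2*-/- array. From E8.5 to E10.5 it was 1.21-fold higher on the WT arrays and 1.69-fold lower on the *Dyrk2*-/- arrays, and over both genotypes the stage difference of −0.24 did not pass the test (95% interval −0.72 to 0.23, adjusted p = 0.41). The single *Sox10* probe (chr15:78985343-78985402, minus strand) leaves these values without a second probe.

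*Snai2*, a zinc finger repressor of cadherin genes during delamination, varied least with *Erbb3*. Its log2 values were 1.76 (WT) and 1.58 (*Dyrk2*-/-) at E8.5 and, in the same order, 1.73 and 1.66 at E10.5. All 4 arrays were close, with the *Dyrk2*-/- array slightly the lower at each stage. The ratio was 1.13-fold lower at E8.5 and 1.04-fold lower at E10.5, and the latter was smaller than the spread between spots. The stage difference was 0.03 (95% interval −0.26 to 0.31).

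*Twist1* encodes a basic helix-loop-helix factor of cranial crest mesenchyme that other mesoderm also expresses. Its log2 values were 0.54 (WT) and 1.07 (*Dyrk2*-/-) at E8.5 and, in the same order, 1.53 and 1.42 at E10.5. The WT E8.5 array was the lowest, the *Dyrk2*-/- E8.5 array was intermediate, and the E10.5 arrays were high. *Twist1* was 1.44-fold higher on the *Dyrk2*-/- array at E8.5, just under the 1.5-fold threshold, and 1.08-fold lower at E10.5. It rose by 0.67 with stage (SE 0.17, adjusted p = 0.013), by 1.997-fold on the WT and 1.27-fold on the *Dyrk2*-/- arrays. *Twist1* has 1 probe (chr12:34644411-34644470, plus strand).

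*Ets1*, an ETS factor of cranial and cardiac crest that is also made in endothelium, had log2 values of 0.87 (WT) and 1.19 (*Dyrk2*-/-) at E8.5 and, in the same order, 1.22 and 1.14 at E10.5. The WT E8.5 array was the lowest, and the other 3 were close together. At E8.5 *Ets1* was 1.24-fold higher on the *Dyrk2*-/- array, and at E10.5 it was 1.06-fold lower. The other probes of *Ets1* had log2 ratios of 0.51 and 0.22 at E8.5 and E10.5 ratios of −0.14 and 0.25; the probes shared the direction at E8.5 only. The stage difference of *Ets1* was 0.15 (95% interval −0.18 to 0.47, adjusted p = 0.46).

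*Ednrb* encodes the endothelin receptor that precursors of melanocytes and enteric neurons need. Its log2 values were −1.52 (WT) and −1.25 (*Dyrk2*-/-) at E8.5 and, in the same order, 0.28 and 0.07 at E10.5. Both E10.5 arrays were well above both E8.5 arrays. *Ednrb* rose by 1.56 (SE 0.17, adjusted p = 0.00014), which is 3.47-fold on the WT and 2.49-fold on the *Dyrk2*-/- arrays. *Ednrb* was 1.20-fold higher at E8.5 on the *Dyrk2*-/- array, and at E10.5 it was 1.16-fold lower.

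A second *Ednrb* probe (chr14:104220870-104220929, minus strand, against chr14:104214484-104214543 for the brightest) was lower on the *Dyrk2*-/- array at both stages, with log2 ratios of −0.13 and −0.23, so that the probes of *Ednrb* disagreed in direction at E8.5. It rose by 1.77 with stage (adjusted p = 8.6e-05). The dimmest probe of *Ednrb* was well above background on the E10.5 arrays only, with log2 values of −3.79 (WT) and −4.23 (*Dyrk2*-/-), and it was at least 2.04-fold and at least 1.23-fold higher there than at E8.5. The rise of *Ednrb* was thus seen at all 3 of its probes.

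*Erbb3* encodes a neuregulin receptor of Schwann cell precursors that signals together with Erbb2. Its log2 values were 0.77 (WT) and 0.71 (*Dyrk2*-/-) at E8.5 and, in the same order, 0.69 and 0.65 at E10.5. The 4 arrays were nearly level. The genotype ratio was 1.04-fold lower at E8.5 and 1.03-fold lower at E10.5, less than the spread between spots, and the stage difference was −0.08 (95% interval −0.37 to 0.22). No array had the second *Erbb3* probe well above background.

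**Figure D1:**
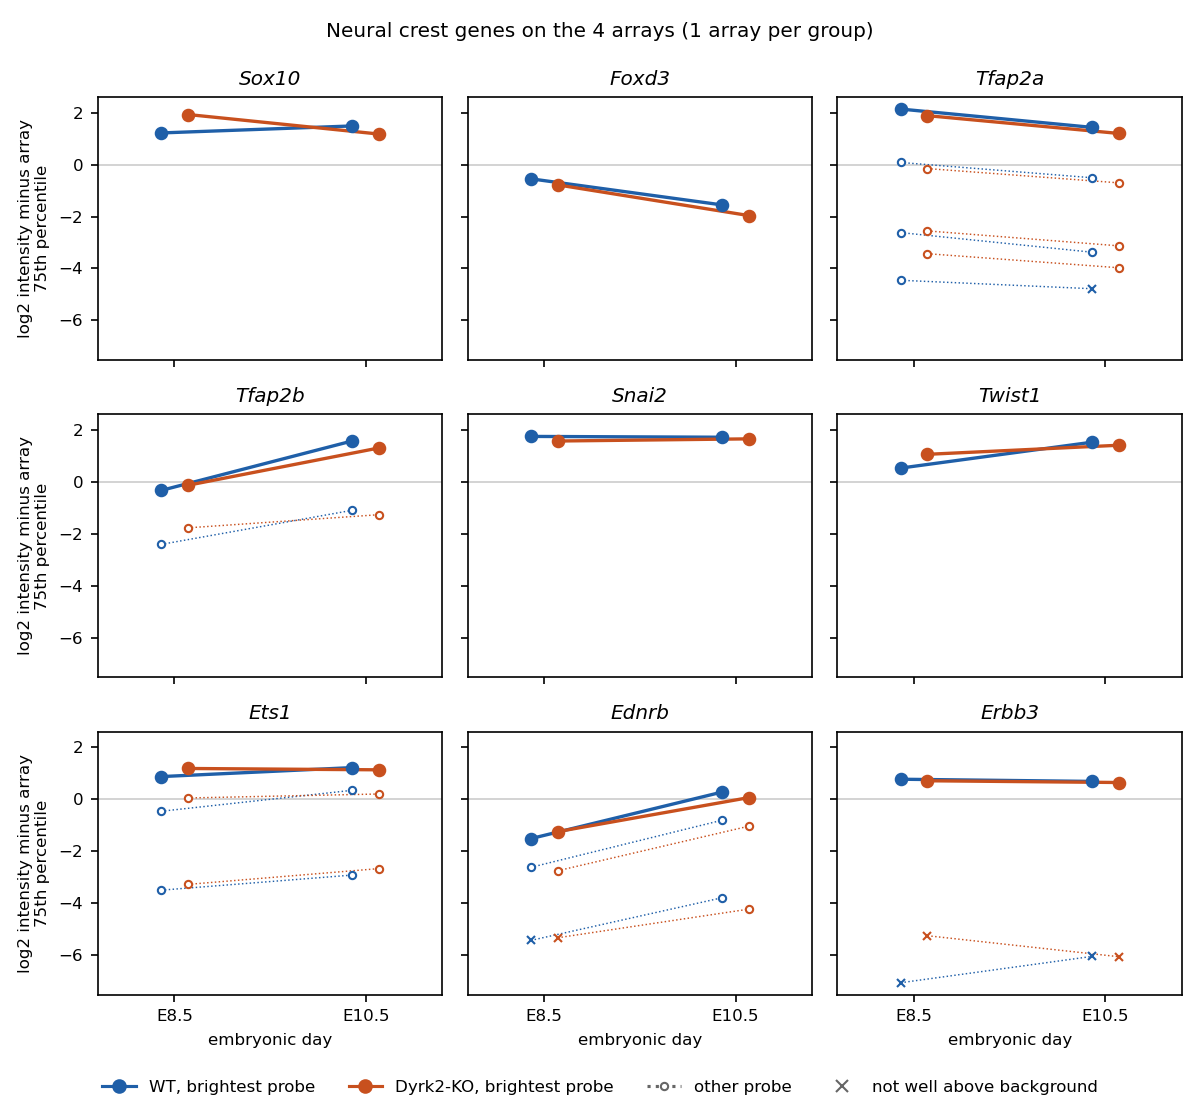
Level of each neural crest gene on the 4 arrays, as log2 intensity minus the array's 75th percentile, against embryonic day, with WT in blue and *Dyrk2*-/- in orange, the brightest probe as filled points, other probes as open points and values not well above background as crosses. *Tfap2b* and *Ednrb* rise and *Foxd3* and *Tfap2a* fall in both genotypes, and levels of different probes are not comparable.

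The stage comparison asks how the crest programme differed between the arrays of E8.5 and E10.5. By fold alone, 3 of the 9 members were 1.5-fold or more higher at E10.5 on the WT arrays (*Tfap2b*, *Ednrb* and *Twist1*), where 19.3% of 16455 genes were, and 2 were lower (*Foxd3* and *Tfap2a*), where 18.3% were. On the *Dyrk2*-/- arrays 2 were higher (*Tfap2b* and *Ednrb*), where 17.1% of 16210 genes were, and 3 were lower (*Sox10*, *Foxd3* and *Tfap2a*), where 14.3% were. Over both genotypes limma called 3 of 9 members higher, where 15.7% of 32289 probes were called, and 2 of 9 lower, where 19.6% were. The members' median stage difference in this fit was 0.03, beside −0.07 over all probes tested, and it was 0.13 with quantile normalization, 0.27 with no scaling and 0.31 with spike-in scaling, while the members went both ways. The genotypes served as the only repeats in this fit, which leaves 1 residual degree of freedom. Limma added a median of 8.07 prior degrees of freedom from the other probes. The small p-values thus rest mostly on a spread shared over probes and not on repeats of each gene. Scaling by the spike-in controls ended the calls of *Foxd3*, *Tfap2a* and *Twist1* (adjusted p = 0.60, 0.99995 and 0.59) and kept those of *Tfap2b* and *Ednrb*. The log2 differences of *Foxd3*, *Tfap2a* and *Twist1* were then −0.81, −0.41 and 0.96, in the same directions as before. Without the intensity trend *Twist1* alone lost its call (adjusted p = 0.10), with its difference unchanged at 0.67.

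**Figure D2:**
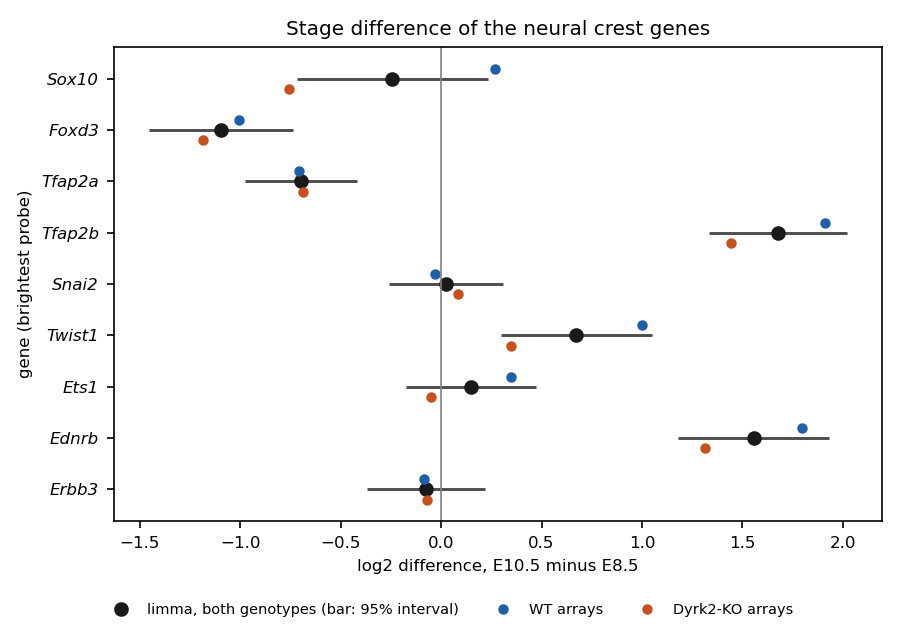
Log2 difference of E10.5 minus E8.5 for the brightest probe of each gene, with black points for the limma estimate over both genotypes, bars for its 95% interval, and coloured points for the WT arrays (blue) and the *Dyrk2*-/- arrays (orange). The intervals of *Foxd3* and *Tfap2a* lie below 0 and those of *Tfap2b*, *Twist1* and *Ednrb* above it, and *Sox10* is above 0 on the WT and below 0 on the *Dyrk2*-/- arrays.

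The comparison of genotypes at E8.5 asks how the arrays labelled WT and *Dyrk2*-/- differed early in organogenesis. Of the 9 members 1 was 1.5-fold or more apart (*Sox10*), beside 9.66% of 15789 genes, with 1 higher on the *Dyrk2*-/- array, beside 4.23%, and 0 lower, beside 5.43%. A share of 1 in 9 is near this background. The median log2 ratio of the members was 0.20, beside −0.03 over all genes, and 5 members (*Sox10*, *Twist1*, *Ets1*, *Ednrb* and *Tfap2b*) were above 0 and 4 below. Scaling by the spike-in controls lowered all E8.5 ratios, with a median over all probes of −0.55, and left only *Sox10* above 0 (0.16), while with no scaling *Tfap2b* fell below 0 (−0.06). Counted over probes in place of genes, 3 of the 16 probes measured well above background in both genotypes were 1.5-fold or more higher, namely that of *Sox10*, the second probe of *Tfap2b* and the dimmest of *Tfap2a*, beside 1763 of the 32015 probes that 1 or both E8.5 arrays had well above background.

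At E10.5 none of the 9 members was 1.5-fold or more apart, beside 6.77% of 16122 genes, so that 0 were higher, beside 2.76%, and 0 lower, beside 4.01%. All 9 were below 0 at their brightest probe, with log2 ratios from −0.41 (*Foxd3*) to −0.04 (*Erbb3*) and a median of −0.21, beside −0.02 over all genes, of which 7450 were above 0. Under spike-in scaling *Snai2*, *Twist1*, *Ets1* and *Erbb3* were above 0 and 5 members below, and with no scaling all 9 were below. Of the 16 such probes at E10.5, 14 were below 0, and the exceptions were the third brightest probes of *Tfap2a* and *Ets1*. The E8.5 and E10.5 ratios come from different arrays, whereas the stage differences above share an array with each of them, so that none of these comparisons is independent of the other kind.

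Over both stages limma called 0 of 9 members between genotypes, beside 0.0186% of 32289 probes (6 probes), with an adjusted p of 0.99988 for each member. Without adjustment, 0 of 9 members at their brightest probe and 1592 of the 32289 probes had a limma p under 0.05. Of the other probes of these genes, the dimmest of *Tfap2a* had the smallest adjusted p in limma (adjusted p = 0.93, unadjusted p = 0.025, 1.89-fold higher). The genotype difference was largest for *Foxd3*, at −0.32 (95% interval −0.68 to 0.04), and for *Tfap2a*, at −0.24 (95% interval −0.52 to 0.04), both lower on the *Dyrk2*-/- arrays at both stages. For *Sox10* the estimate of 0.20 averages a higher and a lower ratio, and its interval ran from −0.28 to 0.68.

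**Figure D3:**
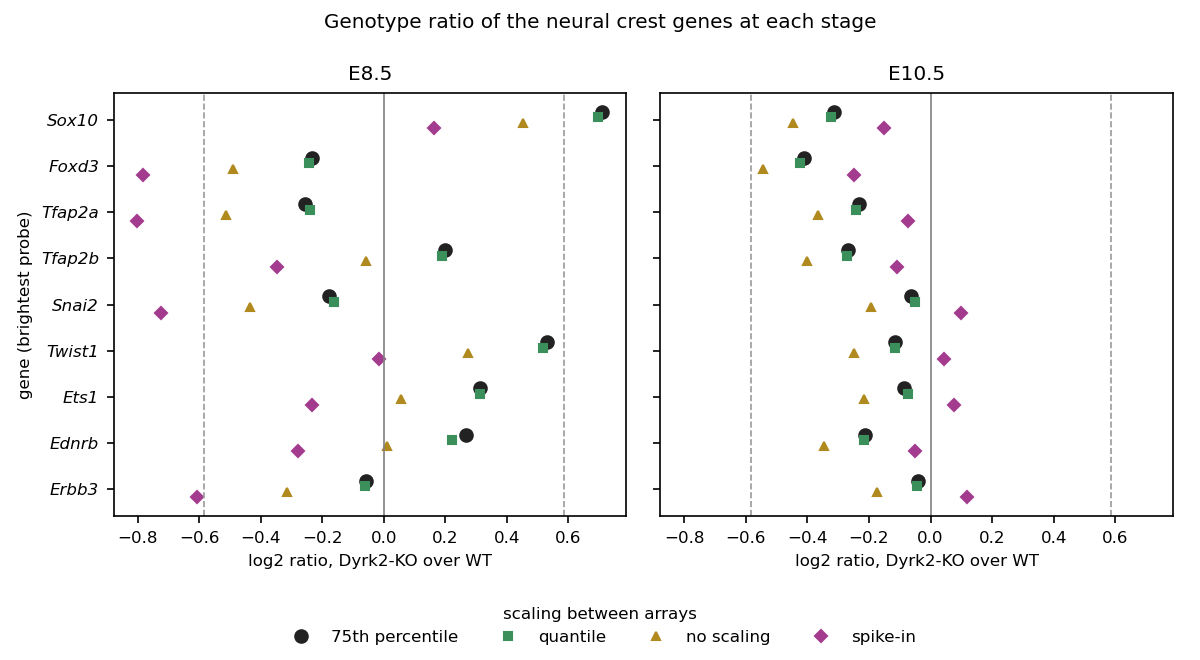
Log2 ratio of *Dyrk2*-/- over WT for the brightest probe of each gene at E8.5 (left) and E10.5 (right), under 4 ways of scaling the arrays; dashed lines mark 1.5-fold. With the 75th percentile *Sox10* alone passes a dashed line, at E8.5, and spike-in scaling moves all E8.5 points to the left and all E10.5 points to the right, so that 4 members change side at E8.5 and 4 at E10.5.

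Patterns over the 4 arrays were compared by the Euclidean distance of log2 values centred on each gene's mean. Among the 36 pairs of members the closest were *Snai2* and *Erbb3* (distance 0.13), which were level, and *Tfap2b* and *Ednrb* (0.14), which rose together. The pair of *Foxd3* and *Tfap2b* was the farthest apart (2.79). The 5 genes nearest to the median pattern of the members, out of 14579 genes well above background on all 4 arrays, were *Zbtb24*, *Ankrd13a*, *Mylip*, *BC028528* and *Tent4a*, at distances of 0.10 each. That pattern is low on the WT E8.5 array (−0.23) and near level on the others (0.01, 0.04 and −0.02), 826 genes lay within 0.2 of it, and the members themselves lay between 0.11 (*Ets1*) and 1.56 (*Tfap2b*) from it.

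Promoter sequences of RefSeq (GRCm38.p6, 250 bases before to 50 after a gene's start) were held for 5 members, *Ednrb*, *Foxd3*, *Tfap2a*, *Tfap2b* and *Twist1*, with 6 promoters in all. They were searched on both strands for letters that factors of the list are known to bind and for TATAAA. GCCNNNGGC, the AP-2 letters, occurred in 1 of the 6, that of *Ednrb*, and in 16.6% of 32851 promoters. CAGGTG (Snai2), CATATG (Twist1), ACAAAG and ACAATG (Sox) and CCGGAAGT (Ets) occurred in 0 of the 6, and in 20.2%, 3.91%, 18.7%, 12.6% and 3.89% of all promoters. TATAAA occurred in 1, that of *Twist1*, and in 13.6% of all. These matches are descriptions of the letters in a short window. The stretch around each match is shown, with the matched letters in capitals, for *Ednrb* at chr14:103843877-103843906 (minus strand, 195 bases before the start) and for *Twist1* at chr12:33957533-33957562 (plus strand, 126 bases before the start).
Ednrb: attgacgtatGCCCTTGGCcgctaggtgcc
Twist1: aggaaactttccTATAAAacttcgaaaagt

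Paralogues of the members were also measured. Of 16, *Tfap2d* and *Snai3* were not well above background on any array, and of 14 tested limma called 5 higher at E10.5 and 2 lower. *Twist2*, a mesenchymal paralogue of *Twist1*, rose by 2.10 (adjusted p = 3.1e-05), *Sox8* by 3.70, *Tfap2e* by 2.82, *Egfr* by 0.87 and *Sox9* 2.14-fold, and *Foxd4* fell by 3.84 and *Erbb2*, the partner of Erbb3, by 0.73. *Sox8* and *Tfap2e* were not well above background at E8.5, nor *Foxd4* at E10.5, so that those differences are uncertain in size. As bounds, *Sox8* was at least 6.86-fold higher at E10.5 on the WT and at least 5.86-fold on the *Dyrk2*-/- arrays. In the same order, *Tfap2e* was at least 3.11-fold and 1.74-fold higher, and *Foxd4* at least 4.61-fold and 2.62-fold lower. *Tfap2c*, *Snai1*, *Ets2*, *Ednra*, *Erbb4*, *Foxd1* and *Foxd2* had stage differences from −0.37 to 0.45 that did not pass. At E8.5, *Twist2* was 1.51-fold higher and *Sox9* and *Foxd4* were 1.65-fold and 1.82-fold lower on the *Dyrk2*-/- array among 12 measured, and at E10.5 0 of 13 were 1.5-fold or more apart. *Sox9*, which acts beside Foxd3 in crest specification, had log2 values of 0.60 (WT) and −0.11 (*Dyrk2*-/-) at E8.5 and, in the same order, 1.55 and 1.13 at E10.5. Its second probe had ratios of 0.16 and −0.50, so that a lower *Sox9* signal was shared by both probes at E10.5 only.

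Genes that act upstream of and beside the members were counted by list. Of 11 neural plate border genes, *Zic2* was 1.51-fold higher at E8.5, and *Dlx5* was higher at E10.5, with a log2 ratio of 0.59. Of 18 genes of crest specification and delamination, *Sox9* and *Sox5* (1.58-fold) were lower at E8.5 and 0 were apart at E10.5, with medians of −0.08 and −0.09. Of 9 measured ligands and partners of the receptors, *Gdnf* was higher at E8.5 (log2 ratio 0.59) and 0 were apart at E10.5. *Edn3*, the ligand of Ednrb in the crest, was well above background on no array, nor were *Edn2* and *Nrg3*, while *Nrg1*, a ligand of Erbb3, had log2 values of 0.49, 0.65, 0.13 and −0.14 on the WT E8.5, *Dyrk2*-/- E8.5, WT E10.5 and *Dyrk2*-/- E10.5 arrays. With stage, limma called 2 border genes higher and 2 lower, 2 specification genes higher and 6 lower, and 2 ligands and partners higher and 4 lower.

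Genes of the crest's derivatives were counted in the same way. Of 11 sympathetic and enteric genes, limma called 6 higher and 3 lower at E10.5. The noradrenaline enzyme genes *Dbh* and *Th* and the Gdnf receptor gene *Gfra1* were lower on the *Dyrk2*-/- E10.5 array, and the list's other 8 members were under 1.5-fold. *Dbh* had E10.5 log2 values of 0.33 (WT) and −0.66 (*Dyrk2*-/-), 1.98-fold lower, and a log2 ratio of −1.18 at its second probe. *Th* had 0.91 and 0.23 (1.61-fold lower, −0.91 at its second probe), and *Gfra1* had −2.04 and −2.97 (1.90-fold lower, 0.06 at its second probe). Under spike-in scaling the log2 ratios of *Dbh*, *Th* and *Gfra1* were −0.83, −0.52 and −0.76. At E8.5, where *Dbh* and *Gfra1* were not well above background, *Gfra3* was 1.73-fold lower.

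Of 10 measured genes of Schwann and satellite glia, *Fabp7* was 1.62-fold lower at E8.5 (log2 values of 0.49 and −0.21), *Dhh* was well above background at E8.5 on the *Dyrk2*-/- array only (at least 1.37-fold higher), and limma called 5 higher and 4 lower with stage. Melanoblast genes held 0 of 5 apart at E8.5 and 1 of 6 at E10.5, *Mlana*, whose count as lower rests on a value not well above background on the *Dyrk2*-/- array (at least 1.08-fold lower with that bound), and the brightest, *Kit* and *Mitf*, had E10.5 ratios of −0.07 and 0.05; limma called 2 higher and 1 lower with stage. Of 7 sensory ganglion genes measured at E8.5, *Neurog2* was 1.81-fold higher and *Pou4f1* (log2 ratios of 0.24 and −0.43 at its other probes) and *Prdm12* were 2.64-fold and 1.81-fold lower, 0 of 9 were apart at E10.5, and limma called 6 higher and 0 lower with stage. Of 11 ectomesenchyme genes measured at E8.5, *Dlx2* and *Alx4* were 1.75-fold and 1.597-fold higher and *Gsc* 2.12-fold lower; of 12 at E10.5, *Dlx5* was likewise higher and *Gsc* and *Dlx6* were 2.03-fold and 1.52-fold lower. Limma called 8 ectomesenchyme genes higher with stage and 0 lower.

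Markers of other cell types moved with the genotype in the same RNA, and their part in the members' values was not tested. All 9 erythroid markers were 1.5-fold or more higher at E8.5 in *Dyrk2*-/-, as were 7 of 9 at E10.5. Their summed level, in units of each array's 75th percentile, was 13.5 (WT) and 264 (*Dyrk2*-/-) at E8.5 and, in the same order, 819 and 987 at E10.5, with the embryonic globin gene *Hbb-bh1* the brightest, and 7 of the 9 were well above background on the WT E8.5 array, so that the E8.5 ratios of the others rest on a value near background. Of 8 yolk sac endoderm markers, 6 were lower at E8.5 and 0 of 7 were apart at E10.5, with summed levels of 51.0, 33.1, 20.8 and 17.2 in the same order and *Afp* the brightest. Of 6 decidua and trophoblast markers measured at E8.5, 2 were higher and 3 lower, and of 3 at E10.5 1 was lower (*Cdx2*). *Cdx2* also acts in intestine development, so that in whole embryos it does not mark trophoblast alone. The arrays also differed in sex chromosome transcripts. *Xist* was well above background on the *Dyrk2*-/- E10.5 array only, and *Ddx3y*, *Eif2s3y*, *Kdm5d* and *Uty* on each array except that one, so that sex and genotype cannot be told apart at E10.5. No member lies on a sex chromosome.

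Some members are also expressed in other tissues, whose markers were counted too. Of 10 endothelial markers, *Emcn* was 1.53-fold higher at E8.5 in *Dyrk2*-/- and 0 were apart at E10.5, with 9 of 10 above 0 at E8.5 with the 75th percentile and 2 of 10 with spike-in scaling. Of 9 paraxial and lateral mesoderm markers, *Meox2* (2.04-fold) and *Pax1* (1.53-fold) were higher at E8.5, and *Tbx6* and *Pax1* were 3.16-fold and 1.57-fold lower at E10.5. Of 9 neural tube markers, *Dbx1* (1.90-fold) and *Olig2* (1.75-fold) were higher at E8.5, and 0 were apart at E10.5. Of 9 surface ectoderm markers 0 were apart between genotypes at either stage, and the brightest, *Krt18* and *Krt8*, had E8.5 log2 ratios of −0.19 and −0.14 and E10.5 ratios of 0.44 and 0.40. With stage, limma called 2 surface ectoderm markers higher and 6 lower. Their summed level was 151 (WT) and 134 (*Dyrk2*-/-) at E8.5 and, in the same order, 31.3 and 38.9 at E10.5. It called 1 yolk sac marker higher and 7 lower, 9 erythroid markers higher and 0 lower, and 4 endothelial markers higher and 3 lower. The part of these markers in the members' stage differences was not tested. Under spike-in scaling no gene of any list above was 1.5-fold or more higher at E8.5 except the 9 erythroid markers and 2 of the decidua and trophoblast list, while 12 of the 18 specification genes and 8 of the 8 yolk sac markers were lower.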

How the data were processed

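The authors deposited the scanner output of 4 one-colour Agilent arrays (SurePrint G3 mouse, Cy3), whose processed intensity is on a linear scale, with background subtracted and no scaling between arrays. The file headers name Feature Extraction 10.7.1.1 and the submitters' processing notes 9.5.1.1. A table of linear intensities, also from the authors, served as an alternative. Processed intensities were taken to log2, replicate spots other than outliers were averaged by probe, and the array's 75th percentile was subtracted. Well above background means that the spots so marked were no fewer than the unmarked spots of the probe. Genes were named through the RefSeq annotation (GRCm38.p6), by accession for 32993 probes, of which 1535 were renamed; probe coordinates (mm9) come from the array annotation, which names no exon or UTR. The probe with the highest mean over the 4 arrays represented a gene.

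Genotypes at a stage were compared by fold, over genes well above background on at least 1 array, and called at 1.5-fold. Where 1 array was not well above background, a fold is a bound against the probe's own value on it or the array's lowest value well above background, whichever is higher; counts use the ratio itself. Both factors were fitted together with limma 3.58.1 (lmFit, eBayes with an intensity trend, Benjamini-Hochberg at 0.05) over probes that 2 or more arrays had well above background, with 1 residual degree of freedom. The 4 RNAs differ in stage or genotype and so came from different embryos, but the labels do not say whether each was a pool. The p-values measure only the spread between these samples, with the variance of each probe moderated by that of the other probes. The fit was tested on simulated data.

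The members and lists were chosen with earlier results of these data known. Named were the members, *Dyrk2*, measured paralogues, up to 4 genes per list and stage that were 1.5-fold or more apart (otherwise the 2 brightest), and the 5 nearest patterns; other genes named were chosen after their values were seen, as were the promoter letters, the radius of 0.2 and the definition of a gene as a name in the RefSeq annotation. The alternatives were quantile normalization, scaling by 7 of 10 spike-in probes, no scaling, normexp with an offset of 50, the deposited table, the mean over probes, no filter, a filter on all 4 arrays, a 2-fold threshold, limma without the trend and limma without the other factor. Software versions were Python 3.11.15 with pandas 2.3.3, numpy 2.4.6 and matplotlib 3.10.9, and R 4.3.3 with data.table (1.17.8).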

Additional observations from a re-analysis of the deposited data

Results flagged for a closer look

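In 5 of the 9 members the ratio of *Dyrk2*-/- over WT was above 0 at E8.5 and below 0 at E10.5, with 1 array per group. The log2 ratios were 0.7106 and −0.3137 for *Sox10*, 0.5306 and −0.117 for *Twist1*, 0.3131 and −0.08599 for *Ets1*, 0.2688 and −0.2135 for *Ednrb* and 0.1997 and −0.2696 for *Tfap2b*. The difference between the stages was not tested, since it is the residual of the fit. Under spike-in scaling *Sox10* alone kept both signs, and *Twist1* and *Ets1* had the opposite sign at each stage. The E10.5 ratio of *Ets1* at its brightest probe was smaller than the spread between spots. The second probes of *Ets1* (0.51 and −0.14) and *Tfap2b* (0.64 and −0.17) kept both signs of the brightest. The dimmest probe of *Ets1* (0.22 and 0.25) and the second probe of *Ednrb* (−0.13 and −0.23) did not.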

How the results depend on the processing

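Quantile normalization, normexp, the deposited table, the mean over probes and the filters kept the members' medians within the spread between spots, and kept 1 member (E8.5) and 0 (E10.5) 1.5-fold or more apart. Spike-in scaling gave a median of −0.35 for E8.5 and of −0.0517 for E10.5, with 4 members apart at E8.5, all lower (*Foxd3*, *Tfap2a*, *Snai2* and *Erbb3*). No scaling gave −0.0569 and −0.35 with 0 members apart at E8.5, and a 2-fold threshold gave 0. These scalings subtract 1 constant per array, and they shifted the median of all probes to −0.55 and −0.26 (E8.5), to 0.17 and −0.12 (E10.5), to −0.19 and −0.19 (genotype fit) and to 0.21 and 0.17 (stage fit). With the mean over probes *Tfap2a* was above 0 at both stages (0.15 and 0.16), and so was *Ets1* at E10.5 (0.00695).

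Of all probes, 3786 were 1.5-fold or more apart at E8.5 (1763 higher, 2023 lower) and 2628 at E10.5 (1240 higher, 1388 lower). At E8.5 spike-in scaling gave 14881 (420 higher, 14461 lower), no scaling 808 higher and 4723 lower, normexp 782, no filter 10523 and the filter on all 4 arrays 1985. At E10.5 normexp gave 421, no filter 8138 and the filter on all 4 arrays 886, and the split was 2118 higher and 851 lower with spike-in scaling and 909 and 2183 with no scaling.

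For genotype, limma called 6 probes (4 higher, 2 lower), and 29 with quantile normalization, 37 with spike-in scaling, 729 with no scaling (114 higher, 615 lower), 25 with normexp, 40 with the deposited table, 564 with no filter, 10 with the filter on all 4 arrays, and 0 without the trend (1635 at an unadjusted p under 0.05) or without the stage term (72). It called 0 of 9 members in each of these fits, with 2 members at an unadjusted p under 0.05 with no scaling, 1 with no filter and 0 in the others. For stage it called 11397 probes (5062 higher, 6335 lower), 2633 with spike-in scaling (2095 higher, 538 lower), 6437 without the trend, and 8758 higher and 3010 lower with no scaling. Members called were 5, or 2 with spike-in scaling and 4 without the trend. The cause of these changes was not tested. With 1 array per group, 1 residual degree of freedom and members printed once, the number of arrays limits the precision, and dim probes such as those near a log2 value of −4 are limited by their signal over background.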
